A study of Mus musculus with 36 samples.

Results

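The cathepsins described here are 10 genes (Ctsa, Ctsb, Ctsc, Ctsd, Ctsf, Ctsh, Ctsk, Ctsl, Ctss and Ctsz), found in the RNA count table by the Ensembl IDs of their symbols. They are 10 of 37991 genes in that table, and all 10 were among the 14457 genes with enough counts to be tested. RNA was sequenced from the hippocampus of female mice, given in the labels as 3 months old, of the CK-p25 line, a double-transgenic model of neurodegeneration, and of their control littermates. The 4 groups were CKp25 and CK mice at 2 weeks, and CKp25 and CK mice at 6 weeks, counted from induction of p25 (the shortened form of p35 that overactivates Cdk5), with 3 libraries each. The labels name neither the promoters that drive the transgenes nor the alleles that CK littermates carry. They do not call the library numbers animals, so the p-values rest on differences among libraries that could be technical repeats. The question behind the design was how gene expression in CK-p25 mice departs from that of controls at an early and a later time.

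Cathepsins are proteases of endosomes and lysosomes. Most are made as inactive precursors, carried to the lysosome by mannose 6-phosphate receptors and activated there by acid and by other proteases. Within the brain they are abundant in microglia, where they digest engulfed material and trim antigens, and every cell type uses some of them for its own protein turnover. The family holds an aspartic protease (Ctsd), a serine carboxypeptidase (Ctsa) and papain-like cysteine proteases, which cut at the ends of chains (Ctsb, which also cuts inside them, Ctsc, Ctsh and Ctsz) or inside them (Ctsf, Ctsk, Ctsl and Ctss).

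Together the 10 genes took 0.246 to 0.304% of all gene counts in the CKp25 libraries at 2 weeks, against 0.0720 to 0.0772% in CK. At 6 weeks they took 0.250 to 0.345% in CKp25 and 0.0693 to 0.0887% in CK, so the groups did not overlap at either time. Levels below are CPM, a gene's reads relative to the library's gene counts scaled by trimmed mean of M-values (TMM), and a gene is called higher or lower where the adjusted p of edgeR's quasi-likelihood test was under 0.05. By that test 8 of the 10 rose in CKp25 at 2 weeks, where 11.6% of all tested genes were called higher. At 6 weeks 9 of the 10 rose, against 18.1% of all tested genes. None was called lower at either time, while 7.99% of tested genes were at 2 weeks (1155 genes, but 476 without CKp25_2wk_4894) and 15.2% at 6 weeks. The exception at both times was Ctsf, and Ctsk joined it at 2 weeks. The median log2 fold change over the 10 was 1.69 at 2 weeks and 1.84 at 6 weeks, and over all tested genes it was -0.01 and 0. All 3 CKp25 libraries lay above all 3 CK libraries for 8 of the 10 genes at 2 weeks and 9 at 6 weeks, a separation that 18.4% and 23.6% of all tested genes showed.

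**Figure D1:**
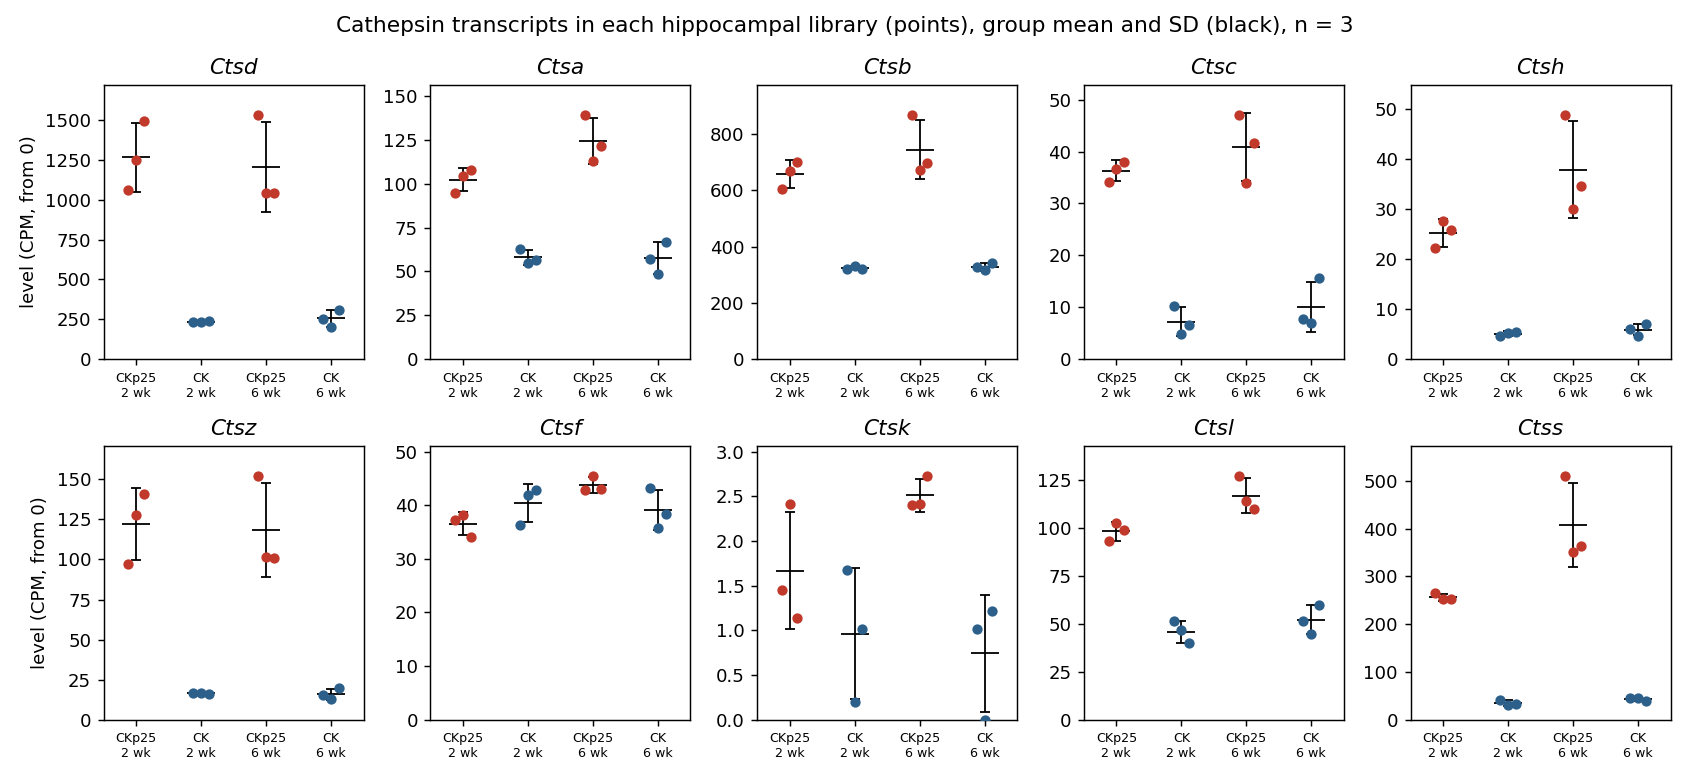
Level of each cathepsin transcript in CPM (vertical axes, each from 0 and on its own scale) in the 12 libraries, with CKp25 in red and CK in blue at 2 and 6 weeks. Points are libraries, black lines are group means with their SD (n = 3). Ctsd, Ctsz, Ctss, Ctsh and Ctsc are well apart between the genotypes at both times, Ctsb, Ctsl and Ctsa differ by less, Ctsk is near 0 throughout and Ctsf overlaps.

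Gene counts per library were 5029996 to 6450140. Reads with several alignments made up 6.81% of CKp25_2wk_4518 and 7.15% of CK_2wk_4520, and 12.2 to 14.3% of the remaining 2-week libraries, so that 1 library of each 2-week group stood apart. At 6 weeks that share was 11.5 to 13.9% in CKp25 and 6.86 to 9.52% in CK, without overlap, and its part in the results was tested only as a covariate in the fit. With it as a covariate the count of cathepsins called was 8 at 2 weeks and 8 at 6 weeks, the gene no longer called being Ctsk. With CK_2wk_4520 and CKp25_2wk_4518 left out together the counts were 8 and 9. Microglial, astrocytic and neuronal markers were all detected, and the hippocampal neuron marker Fibcd1 averaged 76.0 ± 11.8 CPM in CKp25 and 109.6 ± 10.2 CPM in CK at 2 weeks (SD, n = 3 each). Fibcd1 was called lower there (log2 fold change -0.52, edgeR adjusted p = 0.00947). Of 8 hippocampal neuron markers 3 were called lower at 2 weeks and 7 at 6 weeks, against 7.99% and 15.2% of all tested genes.

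Upstream sequences of the genes are shown as a description, and no link between a motif and a change in level was tested. RefSeq windows (build GRCm38.p6) were matched for 8 of the 10 genes, all but Ctsb and Ctsh, with 2 windows for Ctsa, and the 250 bases before the annotated start were searched on both strands for 4 motifs. These were the E-box CACGTG, its longer form TCACGTGA as bound by TFEB-type factors (every match of which is also an E-box), GAGGAAGT as bound by PU.1, and GAAANNGAA as bound by interferon regulatory factors. CACGTG was found for 4 of the 8 genes (Ctsd, Ctsa, Ctsl and Ctsf) and upstream of 6.86% of the 27025 mouse genes with a window. TCACGTGA was found for 2 of 8 (Ctsd and Ctsa) against 0.907%, GAGGAAGT for 1 of 8 (Ctsc, on the opposite strand) against 2.79%, and GAAANNGAA for 1 of 8 (Ctss) against 8.18%. The windows of Ctsz and Ctsk held none of the 4. Below, capitals mark the motif matches, and each sequence runs 5′ to 3′ on the gene's strand. The first 3 are whole 250-base stretches, for Ctsd and Ctsf (both with CACGTG) and for Ctss, and the others are the matches of Ctsa, Ctsl and Ctsc with up to 20 bases on each side.
Ctsd, chr7:142387828-142388077, minus strand: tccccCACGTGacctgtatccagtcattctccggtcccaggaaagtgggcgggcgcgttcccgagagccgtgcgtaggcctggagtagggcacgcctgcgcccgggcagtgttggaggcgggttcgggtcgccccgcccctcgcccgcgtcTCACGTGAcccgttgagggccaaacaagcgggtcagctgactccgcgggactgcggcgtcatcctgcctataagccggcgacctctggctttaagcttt
Ctsf, chr19:4854915-4855164, plus strand: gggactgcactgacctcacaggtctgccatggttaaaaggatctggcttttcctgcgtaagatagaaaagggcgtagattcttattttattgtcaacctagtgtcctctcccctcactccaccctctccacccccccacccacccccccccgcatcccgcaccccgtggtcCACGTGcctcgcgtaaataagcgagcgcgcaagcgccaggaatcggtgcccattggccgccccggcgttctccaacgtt
Ctss, chr3:95526536-95526785, plus strand: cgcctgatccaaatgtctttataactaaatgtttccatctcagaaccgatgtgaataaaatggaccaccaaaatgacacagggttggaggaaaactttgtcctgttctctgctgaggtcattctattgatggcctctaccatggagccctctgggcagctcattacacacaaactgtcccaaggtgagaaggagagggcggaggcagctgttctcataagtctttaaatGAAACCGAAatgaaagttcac
Ctsa, chr2:164833740-164833772, plus strand: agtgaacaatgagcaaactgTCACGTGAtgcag
Ctsl, chr13:64370731-64370770, minus strand: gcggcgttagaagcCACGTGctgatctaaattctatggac
Ctsc, chr7:88277914-88277961, plus strand: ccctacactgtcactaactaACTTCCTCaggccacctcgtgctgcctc
The match nearest to a start was that of Ctsa, beginning 13 bases before it in the second window, and Ctss had its match 21 bases before the start. In Ctsd a first CACGTG began 245 bases before the start and TCACGTGA 99 bases before it. Ctsf carries CACGTG 79 bases before its start. A match describes these letters alone.

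Ctsd, the aspartic protease and one of the main degradative enzymes of the lysosome, was among the most changed. Its level was 1059.9, 1251 and 1494 CPM in CKp25_2wk_4518, CKp25_2wk_4890 and CKp25_2wk_4894, against 230.2, 233 and 238 CPM in CK_2wk_4520, CK_2wk_4891 and CK_2wk_4893. At the later time it was 1531, 1041 and 1045 CPM in CKp25_6wk_3937, CKp25_6wk_3940 and CKp25_6wk_4008, against 251, 203 and 311 CPM in CK_6wk_3936, CK_6wk_3938 and CK_6wk_4009. Every CKp25 library lay far above every CK library of its time, and the CK libraries at 2 weeks lay close together. The log2 fold change was 2.44 ± 0.17 (SE; adjusted p = 1.41e-08) at 2 weeks and 2.24 ± 0.17 (adjusted p = 3.88e-08) at 6 weeks, or 5.42-fold and 4.73-fold. Ctsa, the serine carboxypeptidase that also shields beta-galactosidase and neuraminidase in a complex, moved less. It had 94.9, 104 and 108 CPM in CKp25 and 63.0, 55.0 and 56.5 CPM in CK at 2 weeks, and 139, 113 and 121 CPM in CKp25 and 57.0, 48.6 and 66.9 CPM in CK at 6 weeks, in the same library order. The groups did not overlap, and the log2 fold change was 0.81 ± 0.11 at 2 weeks (adjusted p = 2.72e-05) and 1.11 ± 0.11 at 6 weeks (adjusted p = 7.6e-07).

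Ctsz, a carboxypeptidase also called cathepsin X, had, with Ctss, the largest fold changes of the 10 at both times. It had 97.2, 128 and 141 CPM in CKp25 and 16.6, 16.8 and 16.1 CPM in CK at 2 weeks, and 152, 102 and 101 CPM in CKp25 and 15.3, 12.7 and 19.7 CPM in CK at 6 weeks. The lowest CKp25 library was several times the highest CK library of its time, and the log2 fold change was 2.88 ± 0.19 (adjusted p = 7.73e-09) and 2.87 ± 0.19 (adjusted p = 1.08e-08). Ctsh, an aminopeptidase, had 22.2, 27.6 and 25.8 CPM in CKp25 and 4.53, 5.11 and 5.49 CPM in CK at 2 weeks. The 6-week levels were 48.8, 30.1 and 34.7 CPM in CKp25 and 6.10, 4.65 and 6.98 CPM in CK. The groups were apart at both times, by 2.32 ± 0.21 (adjusted p = 2.91e-07) and 2.66 ± 0.19 (adjusted p = 3.69e-08) on the log2 scale.

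Ctsc, the dipeptidyl peptidase that activates granule proteases of leukocytes, varied more among the controls than most members. It had 34.1, 36.7 and 38.1 CPM in CKp25 and 10.2, 4.91 and 6.503 CPM in CK at 2 weeks, and 47.0, 33.98 and 41.6 CPM in CKp25 and 7.73, 6.88 and 15.5 CPM in CK at 6 weeks. The highest CK library stood well above the other CK libraries of its time but below every CKp25 library, and the log2 fold change was 2.30 ± 0.25 (adjusted p = 2.54e-06) and 1.99 ± 0.23 (adjusted p = 6.61e-06). Ctsb, a broadly used lysosomal protease, had 604, 669 and 701 CPM in CKp25 and 322, 332 and 321 CPM in CK at 2 weeks. At 6 weeks it had 866, 672 and 695 CPM in CKp25 and 326.5, 315 and 342 CPM in CK. Its CK libraries lay close together, and the log2 fold change was 1.02 ± 0.09 (adjusted p = 4.24e-07) and 1.18 ± 0.09 (adjusted p = 8.54e-08). RefSeq's gene table places other genes over part of Ctsb (Fdft1), Ctsz (Nelfcd) and Ctsa (Neurl2 and Pltp), and a pseudogene over part of Ctss (Hmgb1-ps5). With the strand setting of the counting unknown these members are less certain. No fold change is given for Neurl2 and Hmgb1-ps5. Fdft1 fell by 0.46 on the log2 scale at 2 weeks and by 0.88 at 6 weeks, Nelfcd was called at neither time (log2 fold changes 0.16 and 0.01), and Pltp was called higher at 6 weeks alone (0.63, adjusted p = 0.00776).

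Among the enzymes that cut inside chains, Ctss, which removes the invariant chain from MHC class II molecules and stays active outside lysosomes, changed most. It had 265, 252 and 253 CPM in CKp25 and 42.1, 31.3 and 32.9 CPM in CK at 2 weeks, and 509.55, 351 and 364 CPM in CKp25 and 44.6, 45.1 and 39.1 CPM in CK at 6 weeks. The 2-week CKp25 libraries lay close together, and every 6-week CKp25 library was above them. The log2 fold change was 2.85 ± 0.14 (adjusted p = 3.05e-10) at 2 weeks and 3.25 ± 0.14 (adjusted p = 1.12e-10) at 6 weeks, where its 9.52-fold rise was the largest among the 10. Ctsl, which has roles in lysosomal turnover and in antigen processing in the thymus, had 93.0, 103 and 98.9 CPM in CKp25 and 51.3, 46.6 and 39.8 CPM in CK at 2 weeks. At the later time it had 127, 114 and 109.7 CPM in CKp25 and 51.7, 44.7 and 60.1 CPM in CK. The groups did not overlap, and the log2 fold change was 1.09 ± 0.11 (adjusted p = 8.59e-07) and 1.16 ± 0.10 (adjusted p = 3.8e-07).

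Ctsf, a cysteine protease whose loss causes a neuronal lipofuscinosis in humans, had 37.3, 38.2 and 34.2 CPM in CKp25 and 36.4, 41.9 and 42.9 CPM in CK at 2 weeks. The 6-week levels were 42.8, 45.4 and 43.1 CPM in CKp25 and 43.1, 35.8 and 38.4 CPM in CK. The groups overlapped at both times. The log2 fold change was -0.14 ± 0.10 (95% interval -0.34 to 0.06, adjusted p = 0.349) at 2 weeks and 0.16 ± 0.10 (-0.04 to 0.37, adjusted p = 0.209) at 6 weeks, which leaves room for a fold of 0.787 to 1.04 and of 0.973 to 1.29. Ctsk, best known as the collagenase of osteoclasts, was near the limit of detection, with 7 to 13 reads per CKp25 library and 1 to 10 per CK library at 2 weeks, and 12 to 15 and 0 to 7 at 6 weeks. At 2 weeks it had 1.46, 2.41 and 1.14 CPM in CKp25 and 1.68, 0.205 and 1.02 CPM in CK, with overlap, a log2 fold change of 0.70 ± 0.60 and an adjusted p of 0.47. At 6 weeks it had 2.40, 2.42 and 2.73 CPM in CKp25 and 1.02, 0 and 1.22 CPM in CK, without overlap, a log2 fold change of 1.68 ± 0.60 and an adjusted p of 0.0381. That call was lost when any of CKp25_6wk_3937, CKp25_6wk_3940, CKp25_6wk_4008, CK_6wk_3936 and CK_6wk_3938 was left out (edgeR adjusted p = 0.0784, 0.0626, 0.0919, 0.0637 and 0.129).

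**Figure D2:**
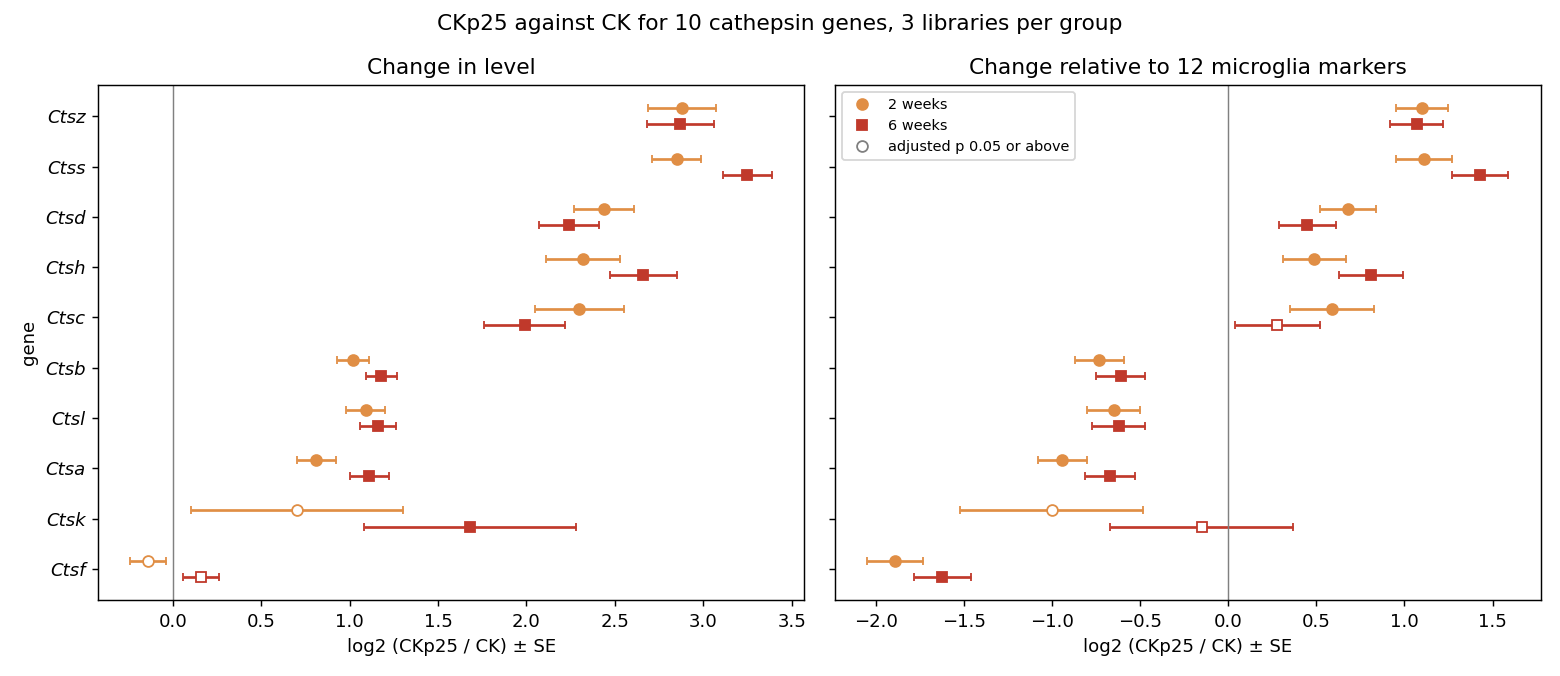
CKp25 against CK for the 10 cathepsins, as log2 fold change with its SE (horizontal axes) at 2 weeks (circles) and 6 weeks (squares), from edgeR on the left and, on the right, from limma on levels relative to 12 homeostatic microglia markers of the same library. Open symbols have an adjusted p of 0.05 or above. On the left the 8 genes from Ctsz to Ctsa sit at 0.81 or above and Ctsf lies around 0, and on the right Ctsz, Ctss, Ctsd and Ctsh lie above 0 and Ctsb, Ctsl, Ctsa and Ctsf below it.

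The makeup of the cathepsin reads is given as each gene's share in every group. At both times the ranges of the genotypes did not overlap for any member but Ctsc and Ctsk. The shares add up to a fixed total, so they do not move independently of each other. Ctsd supplied 45.9 to 51.6% of the counts in the 10 genes in CKp25 and 29.6 to 31.3% in CK at 2 weeks, and 40.8 to 44.2% and 28.3 to 34.5% at 6 weeks. Ctsb went the other way, with 24.2 to 26.2% in CKp25 and 41.4 to 43.3% in CK at 2 weeks, and 25.0 to 27.2% in CKp25 and 38.0 to 44.0% in CK at 6 weeks. Ctss supplied 8.75 to 11.5% in CKp25 against 4.08 to 5.41% in CK at 2 weeks, and 14.0 to 14.7% against 4.34 to 6.30% at 6 weeks. Ctsf, whose level was not called different, made up 1.18 to 1.62% in CKp25 and 4.68 to 5.64% in CK at 2 weeks. These shares depend on transcript length, so they compare a gene between groups and not one gene with another.

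**Figure D3:**
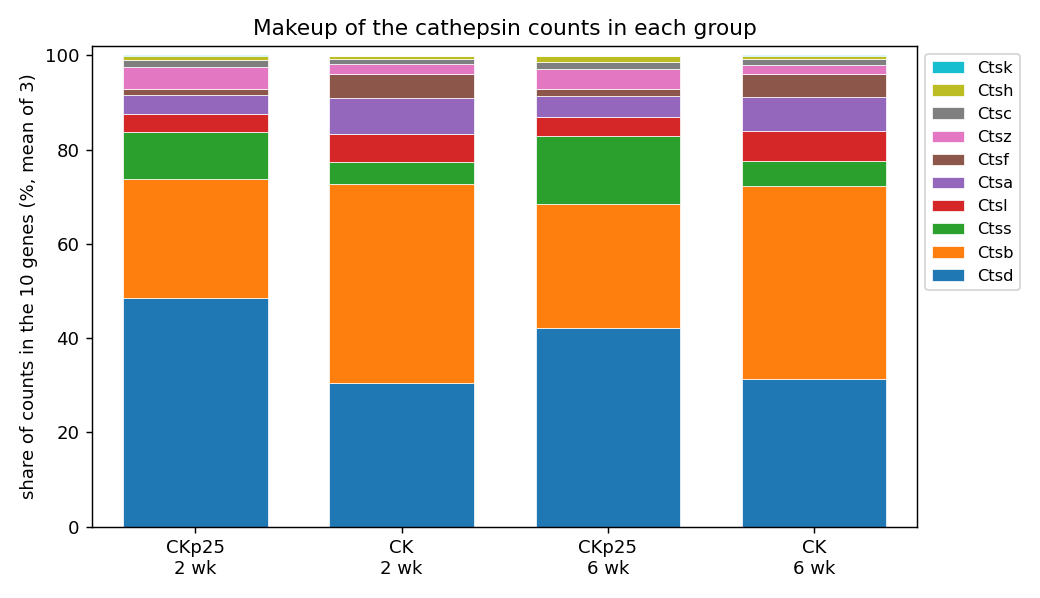
Mean share of each cathepsin among the counts in the 10 genes (vertical axis, %, from 0) in CKp25 and CK libraries at 2 and 6 weeks (n = 3 each). Ctsd averaged 48.5% in CKp25 and 30.4% in CK at 2 weeks, and Ctsb 25.3% and 42.3%.

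The genotype effect on the cathepsins was then compared between the times. For none of the 10 was a difference between the 6-week and the 2-week effect called by edgeR's test, where 0.374% of tested genes had a higher effect and 0.18% a lower one. Unadjusted p-values were under 0.05 for 2 of the 10 (Ctsf and Ctss), where 14.4% of all tested genes were, and DESeq2 and limma-voom also called 0. The differences ran from -0.31 ± 0.35 for Ctsc to 0.40 ± 0.19 for Ctss (adjusted p = 0.347), with 0.99 ± 0.87 for the sparse Ctsk. Within CKp25 mice, Ctss rose between the times, with 408 ± 87.9 CPM at 6 weeks and 257 ± 7.31 CPM at 2 weeks (SD, n = 3 each), a log2 fold change of 0.67 ± 0.12 and an adjusted p of 0.0016. Ctsh rose too, with 37.9 ± 9.73 CPM at 6 weeks and 25.2 ± 2.79 CPM at 2 weeks (log2 fold change 0.58 ± 0.16, adjusted p = 0.0215). These 2 of 10 stand beside 6.12% of tested genes called higher in that comparison, and none of the 10 was called lower, against 5.53%. The call for Ctsh was lost without CKp25_2wk_4518 (adjusted p = 0.1), CKp25_2wk_4894 (0.069) or CKp25_6wk_3937 (0.148). Within CK mice 0 of the 10 were called higher or lower, and of all tested genes 0% and 0% were, by edgeR, DESeq2 and limma-voom, with 560 genes and none of the 10 at an unadjusted p under 0.05. Ctsc had the largest fold change there (log2 0.47 ± 0.29), with 10.1 ± 4.77 CPM at 6 weeks and 7.21 ± 2.73 CPM at 2 weeks. In this design the time after induction cannot be told apart from age or from a batch common to 1 time.

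In 3 of the 4 groups 1 library was highest or lowest for most members. In CKp25 at 6 weeks, CKp25_6wk_3937 had the highest level of 8 of the 10 genes, and in CK at 6 weeks CK_6wk_3938 had the lowest of 9 and CK_6wk_4009 the highest of 8. In CKp25 at 2 weeks, CKp25_2wk_4518 had the lowest of 7. In CK at 2 weeks no library had the highest level of more than 5 genes or the lowest of more than 4. Deviations from the group means, over 12 libraries that share normalization and depth, ran together most closely for Ctsd and Ctsz (r = 0.981), Ctsb and Ctsz (0.914) and Ctsd and Ctsb (0.896). Against the 7 others, leaving out Ctsf and Ctsk, those of Ctss had r = 0.231 (Ctsh) to 0.486 (Ctsb). For Ctsk, with few reads, r ran from 0.0647 (Ctsb) to 0.71 (Ctsc), and for Ctsf from -0.43 against Ctss to 0.223 against Ctsh.

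For each member up to 3 other genes whose log2 CPM ran most alike over the 12 libraries are given, as a description of patterns set largely by the 4 groups. Among those closest to Ctsd were Herc6 (r = 0.993) and Lgmn (0.991, legumain, a protease that processes cathepsins). Among those closest to Ctsz were Csf1r (0.995, the receptor that maintains microglia) and Cst7 (0.994, a cathepsin inhibitor). Ctsb was closest to Unc93b1 (0.998), Clec7a (0.995) and C1qb (0.995), and Ctsa to Trem2 (0.988), Lair1 (0.985) and Tlr13 (0.985), most of which are known from myeloid cells. Ctss was closest to Gfap (0.995, the intermediate filament of astrocytes), C4b (0.995) and Pros1 (0.994), and Ctsh to Npc2 (0.994), Clec5a (0.992) and Gfap (0.992). Ctsl was closest to Lag3, Cmtm6 and Cd84 (0.985 to 0.986) and among those closest to Ctsc were Tent5c and 9930111J21Rik1 (both 0.982). The closest genes to Ctsf were Ndufb11 (0.897), Ogdhl (0.891) and Gm12892 (0.888), with log2 fold changes of -0.11 to -0.31 at 2 weeks and 0.18 to 0.33 at 6 weeks. Those to Ctsk were Man1b1 (0.935), Prkch and a gene without a symbol.

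Microglia markers moved with the cathepsins. In bulk tissue more cells of a type and more RNA per cell cannot be told apart. All 12 homeostatic microglia markers, Csf1r, Cx3cr1, P2ry12 and Tmem119 among them, rose at both times. Their summed level was 658 to 833 CPM in CKp25 and 212 to 235 CPM in CK at 2 weeks, and 723 to 896 CPM in CKp25 and 198 to 231 CPM in CK at 6 weeks, with none at 0. All 14 markers of activated microglia rose too, summing to 1332 to 1558 CPM in CKp25 and 768 to 827 CPM in CK at 2 weeks, and 2855 to 4284 CPM in CKp25 and 747 to 852 CPM in CK at 6 weeks. Most of that sum came from 1 marker, which astrocytes also express, and the other 13 summed to 404 to 471 CPM in CKp25 and 121 to 150.05 CPM in CK at 2 weeks, and 545 to 802 CPM in CKp25 and 116 to 140.03 CPM in CK at 6 weeks. Of 4 tested border macrophage markers 0 were called at 2 weeks and 4 rose at 6 weeks, summing over all 7 to 11.9 to 19.3 CPM in CKp25 and 7.11 to 16.9 CPM in CK at 2 weeks, and 21.6 to 41.0 CPM in CKp25 and 6.88 to 11.8 CPM in CK at 6 weeks, a count of 2 without CKp25_6wk_3937 or CKp25_6wk_4008. Monocyte and neutrophil markers summed to 1.85 to 3.60 CPM in CKp25 and 0.203 to 1.43 CPM in CK at 2 weeks, and 1.93 to 3.40 CPM in CKp25 and 0 to 0.873 CPM in CK at 6 weeks, without overlap at either time. These sums rest on few reads. Much of the 2-week sum in CKp25 came from Plac8, with a mean of 1.72 CPM, while Chil3 was read in CK at 2 weeks alone. T and NK cell markers summed to 0.490 to 1.31 CPM in CKp25 and 0.203 to 1.01 CPM in CK at 2 weeks, with overlap, and 1.93 to 4.40 CPM in CKp25 and 0 to 0.873 CPM in CK at 6 weeks, without overlap. B cell markers overlapped at both times and reached at most 1.80 CPM. None of these 3 lists had a gene with enough counts to be tested, and Ly6g, Elane and Ms4a1 were at 0 in every library. Astrocyte markers rose for 4 of 10 at 2 weeks and 9 of 10 at 6 weeks, summing to 7898 to 8252 CPM in CKp25 and 5911 to 6372 CPM in CK at 2 weeks, and 10707 to 13288 CPM in CKp25 and 6035 to 6614 CPM in CK at 6 weeks. Oligodendrocyte markers rose for 1 of 8 at 2 weeks and 7 of 8 at 6 weeks. Endothelial markers rose for 0 and 7 of 7, pericyte and fibroblast markers for 0 and 7 of 8, and dividing cell markers for 4 of 4 at both times. Beside these counts, 11.6% of all tested genes were called higher at 2 weeks and 18.1% at 6 weeks, and the oligodendrocyte count at 2 weeks is near that share. The part of these cell types in the cathepsin values was not tested. Choroid plexus markers, which varied from 152 to 3896 CPM between libraries, were called for 0 of 10, and with their mean as a covariate 8 and 9 cathepsins were called.

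Levels relative to the microglia markers of the same library show how evenly the cathepsins moved with them. The 12 homeostatic markers averaged 1.75 higher on the log2 scale in CKp25 than in CK at 2 weeks (5.53 and 3.78 log2 CPM) and 1.79 higher at 6 weeks (5.53 and 3.74). Single markers changed unequally, by 0.81 to 2.86 at 2 weeks and 0.62 to 2.77 at 6 weeks by edgeR. The SEs and p-values below leave out that spread, so a gene above the mean did not outrun every marker. With limma on the difference from the mean of the markers, 5 of the 10 cathepsins were higher in CKp25 at 2 weeks (2.34% of all tested genes) and 4 lower (93.6%). At 6 weeks 4 were higher (1.69%) and 4 lower (92.7%). Ctss changed by 1.11 ± 0.16 (adjusted p = 3.59e-07) at 2 weeks and 1.43 ± 0.16 (adjusted p = 3.74e-09) at 6 weeks beyond the mean of the markers, and Ctsz by 1.10 ± 0.15 (1.63e-07) and 1.07 ± 0.15 (2.45e-07). Ctsd did so by 0.68 ± 0.16 (0.000209) and 0.45 ± 0.16 (0.00816), and Ctsh by 0.49 ± 0.18 (0.012) and 0.81 ± 0.18 (0.00015). Ctsc was called at 2 weeks (0.59 ± 0.24, 0.0218) and not at 6 weeks (0.28 ± 0.24, 0.261). Ctsa, Ctsb and Ctsl fell relative to the mean of the markers at both times, by 0.94, 0.73 and 0.65 at 2 weeks and by 0.67, 0.61 and 0.62 at 6 weeks. Ctsf fell by 1.89 and 1.62, and Ctsk was called at neither time.

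The single calls among these varied with the libraries and with the markers used. Ctsc at 2 weeks was not called without CKp25_2wk_4518 (adjusted p = 0.0569), CK_2wk_4891 (0.204) or CK_2wk_4893 (0.0557), Ctsh at 2 weeks without CK_2wk_4520 and CKp25_2wk_4518 together (0.0542), and Ctsd at 6 weeks without CK_6wk_3938 (0.0911). Ctsc at 6 weeks was called without CK_6wk_4009 (0.58, adjusted p = 0.0206), and Ctsk at 2 weeks was called lower without CKp25_2wk_4890 (0.0469), CK_2wk_4891 (0.00654) or CK_6wk_3938 (0.032). Set against the 14 activated microglia markers instead, 2 of 10 were higher at 2 weeks (1.39% of all tested genes) and 5 lower (95.7%), and at 6 weeks 0 were higher (0.263%) and 8 lower (98.2%). On that scale Ctsd at 6 weeks was called lower, by -0.84 (adjusted p = 0.000173), and so was Ctsh, by -0.49 (0.036), so the direction of these genes at 6 weeks depends on which microglial genes are taken. Ctsc, not called against the homeostatic markers at 6 weeks, differed by -1.02 (3.2e-05), and Ctsz by -0.22 was not called (0.277). Ctss, which changed most against the homeostatic markers at 6 weeks, differed by 0.14 on that scale and was not called (0.489). At 2 weeks Ctsz was higher there too, by 0.57 (0.00711). With Csf1r alone 5 were higher at 2 weeks (2.24% of all tested genes) and 5 lower (94%), and at 6 weeks 3 were higher (1.17%) and 4 lower (94.6%). Ctsd at 6 weeks was not called against Csf1r (0.19, adjusted p = 0.263). This ratio shows unequal change within a library and not whether a given marker is constant per cell.

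Of 13 other mouse cathepsins, 10 had no read in any library (Ctsg, Ctsj, Ctsll3, Ctsm, Ctsq, Ctsr, Cts3, Cts6, Cts7 and Cts8, many of them known from the placenta). Ctse, an aspartic protease of immune cells, had 18 reads in the 3 CKp25 libraries and 0 in the 3 CK libraries at 2 weeks, at least 5.57-fold higher against a floor of 3 reads over the group (adjusted p = 0.00344). The 6-week libraries held 41 reads in CKp25 and 2 in CK, a ratio of 19.6 with an exact 95% counting interval of 5.1 to 167 (edgeR adjusted p = 0.000307). That interval pools the reads of a group and leaves out the spread between libraries. Ctso averaged 32.1 ± 3.97 CPM in CKp25 and 24.8 ± 2.39 CPM in CK at 2 weeks (adjusted p = 0.103), and it rose to 50.2 ± 11.1 CPM in CKp25 at 6 weeks, against 23.7 ± 2.02 CPM in CK (log2 fold change 1.07, adjusted p = 3.42e-05; SD, n = 3 each). At 2 weeks Ctso was called without CKp25_2wk_4518 (adjusted p = 0.0492) or CKp25_6wk_3940 (0.0469). Ctsw, known from cytotoxic lymphocytes, had 15 reads over all libraries and was not tested.

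Cathepsin inhibitors rose for 2 of 5 tested genes at 2 weeks and 3 of 5 at 6 weeks, with medians of 0.37 and 0.66 on the log2 scale. The shares called higher over all tested genes were 11.6% and 18.1%. Cst7, cystatin F, which restrains Ctsc and other cathepsins in myeloid cells, had 515 reads in CKp25 and 2 in CK at 2 weeks (ratio 239, exact 95% counting interval 65.8 to 1980), and 468 and 1 at 6 weeks (ratio 448, 80.0 to 17700). These intervals pool the reads of a group and leave out the spread between libraries (84 to 193 reads per CKp25 library at 6 weeks). By edgeR the log2 fold change was 7.57 ± 0.61 (adjusted p = 9.77e-08) at 2 weeks and 8.34 ± 0.68 (1.08e-07) at 6 weeks. Cst3, cystatin C, the main secreted inhibitor of the brain, averaged 689.8 ± 144 CPM in CKp25 and 488 ± 64.5 CPM in CK at 2 weeks (SD, n = 3 each; log2 fold change 0.50, adjusted p = 0.0143), and 1276 ± 148 CPM in CKp25 and 427 ± 32.3 CPM in CK at 6 weeks (1.58, adjusted p = 2.36e-07). Its call at 2 weeks was lost without CKp25_2wk_4890 (adjusted p = 0.0813), CKp25_2wk_4894 (0.0742) or CK_2wk_4520 (0.0674). Cstb, a cytosolic inhibitor, was called at 6 weeks alone (0.66, adjusted p = 0.00961), and not without CK_6wk_4009 (0.052) or with the share of reads at several places as a covariate (0.121).

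Partners that process or accompany cathepsins rose for 3 of 8 genes at 2 weeks and 7 of 8 at 6 weeks, with median log2 fold changes of 0.36 and 0.70. For comparison, 11.6% and 18.1% of all tested genes were called higher. Grn, the precursor of granulins, which sustain Ctsd activity, averaged 193 ± 16.3 CPM in CKp25 and 36.7 ± 2.21 CPM in CK at 2 weeks (SD, n = 3 each; log2 fold change 2.39), and 116 ± 12.3 CPM in CKp25 and 36.1 ± 3.28 CPM in CK at 6 weeks (1.68). Lgmn changed by 1.40 and 1.22, and Ifi30, a lysosomal thiol reductase, by 2.29 and 2.37. Neu1, the neuraminidase that Ctsa protects, was not called at either time (-0.08 and -0.05), while Glb1, the beta-galactosidase of the same complex, was called at 6 weeks (0.68, adjusted p = 0.0021). The list of other lysosomal hydrolases shares Lgmn, Glb1, Neu1 and Ppt1 with the partners, so its counts overlap with theirs. It rose for 12 of 32 genes at 2 weeks and 21 of 32 at 6 weeks (medians 0.32 and 0.56), among them Dnase2a (1.52 and 2.49) and Hexa (1.38 and 1.47). Among them Ids, which cleaves sulfate from heparan and dermatan sulfate, fell by 0.24 at 6 weeks (adjusted p = 0.0195), and not without CKp25_6wk_4008 (0.0607) or CK_6wk_3936 (0.123).

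Genes of lysosomal sorting and acidification were called in both directions, which is not particular to these lists. Over all tested genes 11.6% were called higher and 7.99% lower at 2 weeks, and 18.1% and 15.2% at 6 weeks. Of 15 genes of lysosomal sorting, 1 rose and 2 fell at 2 weeks and 3 rose and 3 fell at 6 weeks (medians 0.01 and -0.06), with Scarb2, a lysosomal membrane receptor, at log2 fold changes of 0.40 and 0.80 and the adaptor Gga2 at 0 and -0.44. Nagpa, which uncovers the mannose 6-phosphate tag, was called at 6 weeks (0.67, adjusted p = 0.0267), and not without CKp25_6wk_4008 (0.101), CK_6wk_3936 (0.116) or CK_6wk_4009 (0.0626). Scarb2 at 2 weeks was not called without CKp25_2wk_4894 (0.055). Gga2 at 6 weeks was not called with the share of reads at several places as a covariate (-0.32, adjusted p = 0.0803). With that covariate Nagpa was not called either (0.55, 0.16). Of 19 subunits and accessory proteins of the v-ATPase, the proton pump of lysosomes and synaptic vesicles, 2 rose and 8 fell at 2 weeks and 3 rose and 9 fell at 6 weeks (medians -0.21 and -0.24). Tcirg1, the a3 subunit known from osteoclasts and macrophages, rose by 1.45 ± 0.18 and 1.47 ± 0.17, while Atp6v1g2, an isoform of neurons, changed by -0.45 ± 0.08 and -0.51 ± 0.08 and Atp6v1a by -0.29 ± 0.09 and -0.47 ± 0.09. The counts of lower subunits were 3 at 2 weeks without CK_2wk_4891 and 5 at 6 weeks without CKp25_6wk_3937. Atp6v1a at 2 weeks was not called without CKp25_2wk_4894 (adjusted p = 0.108), CK_2wk_4891 (0.0579) or CK_2wk_4893 (0.0762). Neuronal markers fell for 8 of 10 at each time, summing to 4037.5 to 4442 CPM in CKp25 and 5559.7 to 5972 CPM in CK at 2 weeks, and 3257 to 4294 CPM in CKp25 and 5383.5 to 5896 CPM in CK at 6 weeks, and their part in the v-ATPase values was not tested.

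Regulators of lysosomal genes made up a short list. Among 6 tested genes of the MiT family of transcription factors and their regulators, 1 rose at 2 weeks and 4 at 6 weeks (medians 0.02 and 0.33). None was called lower. At those times 11.6% and 18.1% of all tested genes were called higher and 7.99% and 15.2% lower. The count at 2 weeks is near the first share, and 6 genes are too few for the lack of lower calls to tell. Tfeb changed by 0.55 (adjusted p = 0.0711) and 0.75 (0.00606), Mitf by 0.56 (0.0314) and 0.72 (0.00302) and Tfe3 by -0.03 (0.908) and 0.37 (0.0251). The count at 6 weeks was 2 with DESeq2 and without CKp25_6wk_3940, CKp25_6wk_4008, CK_6wk_3938 or CK_6wk_4009. Tfe3 at 6 weeks was not called in those fits (adjusted p = 0.0579 with DESeq2, 0.061 to 0.112 without those libraries). It was also not called with the share of reads at several places as a covariate (0.2, adjusted p = 0.308). Mitf at 2 weeks was not called without CKp25_2wk_4518 (adjusted p = 0.0535), CKp25_2wk_4890 (0.075), CKp25_2wk_4894 (0.0772) or CK_2wk_4893 (0.154), and Tfeb was called without CK_2wk_4893 (0.0262). Genes of class II presentation, a list that holds the invariant chain that Ctss digests, rose for 3 of 7 at 2 weeks and 6 of 7 at 6 weeks (medians 2.79 and 3.51). Besides Cd74, the genes called at 2 weeks were H2-DMb1 (adjusted p = 0.00683) and the sparse Ciita (0.008). Cd74, the invariant chain, averaged 20.3 ± 21.3 CPM in CKp25 and 2.15 ± 0.987 CPM in CK at 2 weeks (SD, n = 3 each; log2 fold change 3.13, adjusted p = 0.0202), and 76.4 ± 48.6 CPM in CKp25 and 3.47 ± 1.79 CPM in CK at 6 weeks (4.42, adjusted p = 0.000172). The 2-week call for Cd74 was lost without CKp25_2wk_4890 (adjusted p = 0.15), CK_2wk_4891 (0.0651) or CK_2wk_4893 (0.079) and with limma-voom (0.258). With the share of reads at several places as a covariate 2 of the 7 genes were called at 6 weeks.

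**Figure D4:**
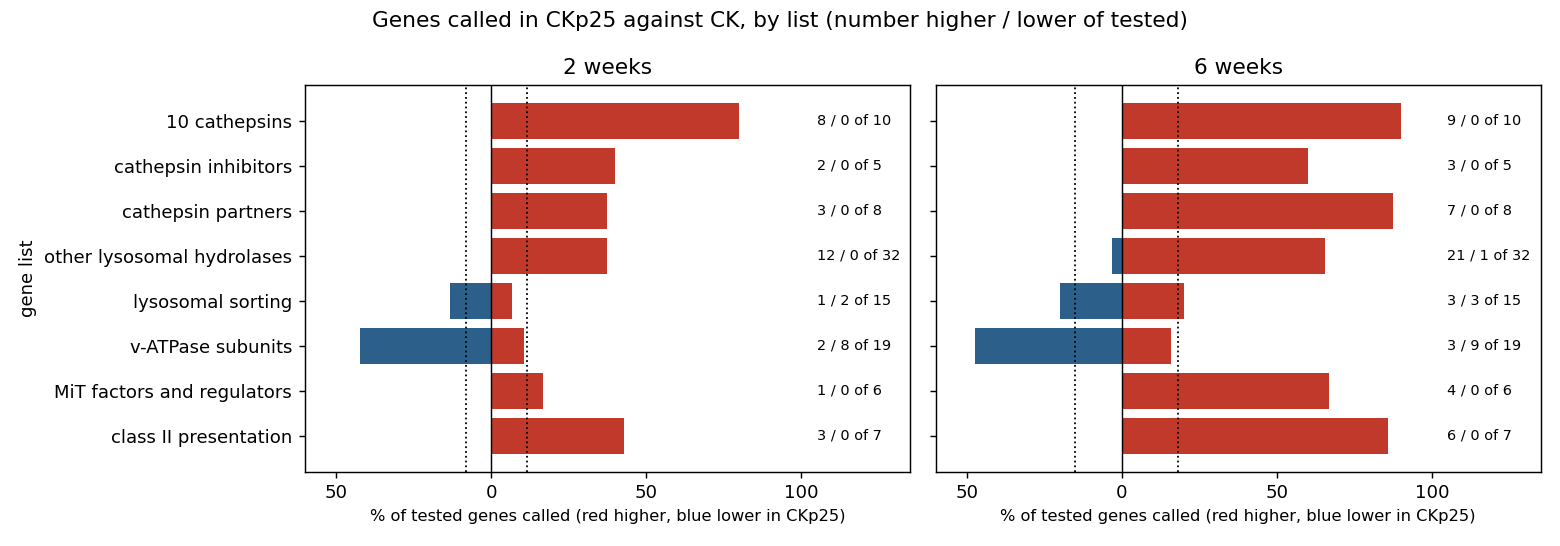
Share of tested genes called in CKp25 against CK (horizontal axes, %, higher to the right in red and lower to the left in blue) for the 10 cathepsins and 7 related gene lists at 2 and 6 weeks, with the counts higher and lower of those tested. Dotted lines are the shares over all tested genes, 11.6% higher and 7.99% lower at 2 weeks and 18.1% higher and 15.2% lower at 6 weeks. The partner and hydrolase lists share some genes. The v-ATPase list has more genes lower than higher at both times, the cathepsins none lower.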

How the data were processed

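RNA of 12 hippocampal libraries was used as the read counts per gene deposited by the authors in 1 table. The submitters' processing notes name Bowtie, Picard, HTSeq 0.6.1 and MACS2 and the builds NCBIM37 and mm9, and per the labels' protocols the kit was stranded with ribosomal RNA removed. The sources used here give no strand setting for the counting. The table's 5 entries that name no gene (38.1 to 46.9% of reads outside features) stayed out of library sizes and tests. Depth was 5029996 to 6450140 gene counts, and no library was a copy of another (chi-square 1.45 to 9.07 per gene within groups). Peak lists of 7 histone marks were not used here.

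Counts were fitted with edgeR 4.0.16 in R 4.3.3 (filterByExpr, TMM, 4 group means, quasi-likelihood F test, Benjamini-Hochberg over 14457 genes), after tests on simulated data. Levels relative to microglia markers were log2 CPM (prior count 2) minus the mean of 12 markers, tested with limma 3.58.1. Alternatives were DESeq2 1.42.0, limma-voom, other scalings, no filter, covariates, a block by number series and libraries left out. Gene names came from the ID table supplied with the data. Of each list the text names genes by size of change at 6 weeks. Others, such as Neu1, Glb1 and the genes over Ctsa, Ctsb, Ctss and Ctsz, were chosen after values were seen. The members and lists were chosen with earlier results of these data known. Some genes that these rules would name are not reported here.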

Additional observations from a re-analysis of the deposited data

Results flagged for a closer look

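No cathepsin met a rule for a closer look. Among related genes, the CKp25 effect differed between the times for 2. Cst3 had a larger effect at 6 weeks than at 2 weeks, by 1.08 ± 0.19 on the log2 scale (edgeR's test of the difference, adjusted p = 0.0162), and without CK_2wk_4891 the adjusted p was 0.0583. Grn had a smaller effect at 6 weeks, with a difference of -0.71 ± 0.14 (edgeR adjusted p = 0.0296). That call was lost without CKp25_2wk_4894, CK_2wk_4891, CK_2wk_4893, CKp25_6wk_4008, CK_6wk_3936 or CK_6wk_4009, and leaving out 1 library gave adjusted p-values of 0.0152 to 0.089.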

How the results depend on the processing

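The number of cathepsins called was 8 at 2 weeks under all 22 alternatives, 8 or 9 at 6 weeks under all 22, where Ctsk was the one lost, and 0 for the difference between times under all 21. The groups share no library numbers, so single libraries could not be paired. A block by number series (library numbers grouped by all but their last 2 digits, a hint from the names and not a stated batch), chosen after seeing the data, called 8, 9 and 0 cathepsins and changed no call among them. With that block 305 genes differed in effect between times. For all tested genes, the count with a different effect between times was 80, and 219 with DESeq2, 693 with no filter on low counts, 301 with the share of several alignments as a covariate, 303 with the choroid plexus covariate and 24 to 204 with 1 library left out. Leaving out 1 library gave 1806 to 3056 genes at 2 weeks (main 2833, lowest without CKp25_2wk_4894) and 839 to 2029 within CKp25 between times (main 1685, lowest without CKp25_6wk_3937). Within CK the count was 0, and 130 with no filter and 26 without CK_2wk_4520 and CKp25_2wk_4518. Relative to microglia markers, no filter gave 22049 genes at 2 weeks and 21815 at 6 weeks (main 13864 and 13649), since more genes were tested. The 2 cathepsins called within CKp25 between times were 4 with no filter, 1 without CK_2wk_4520 and CKp25_2wk_4518, and 1 to 2 with 1 library left out.

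Signs turned mainly for values near 0. Without CK_2wk_4520 and CKp25_2wk_4518, the difference between times was -0.07 for Ctsl, and the change within CK was 0.04 for Ctsa and 0.31 for Ctsk. Within CK, the alignments covariate gave 0.05 for Ctsz and 0.02 for Ctsf, and the choroid covariate -0.01 for Ctsb. With activated microglia markers, Ctsh was -0.04 at 2 weeks, and at 6 weeks Ctsd was -0.84, Ctsc -1.02, Ctsh -0.49 and Ctsz -0.22. A prior count of 0.5 gave 0.54 for Ctsk relative to microglia at 6 weeks. With 1 library left out, the difference between times ran from -0.67 to 0.18 for Ctsc, -0.23 to 0.19 for Ctsz and -0.03 to 0.18 for Ctsl, and the change within CKp25 from -0.28 to 0.04 for Ctsd and -0.27 to 0.05 for Ctsz. Within CK it ran from -0.04 to 0.27 for Ctsd, -0.14 to 0.09 for Ctsa, -0.02 to 0.04 for Ctsb, -0.01 to 0.84 for Ctsc, -0.23 to 0.1 for Ctsz, -0.12 to 0.01 for Ctsf and -0.95 to 0.32 for Ctsk. Ctsk relative to microglia at 6 weeks ran from -0.81 to 0.19, and Tfe3 at 2 weeks from -0.14 to 0.03. Apart from the tested gene number, the cause was not tested. Depth limits Ctsk, Ctse and Cst7 in CK, where reads were few.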
